A study of Mus musculus with 8 samples.

Results

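The deposited expression table of 8 mouse tumors names 3730 loci only by a running newGene number, and these loci are described here. They were chosen by the start of their identifier, Mus_musculus_newGene, and make up 3730 of the 25766 rows of the table; the other 22036 rows are annotated genes. The tumors grew under the skin of female C57BL/6J mice from MC38-OVA, a line of colon adenocarcinoma cells with ovalbumin as a model antigen. By genotype label 4 tumors are shXBP1, with a hairpin against Xbp1, and the other 4 are shNT; no treatment other than the injection of the cells is named for any of the 8. Total RNA of whole tumors was sequenced, so tumor and host cells both contributed to each library. The labels give neither the age of the mice nor the clone or pool of cells behind each hairpin. The tumors are numbered, with nothing said of which mouse bore which, so the p-values cover only the spread between these samples, which may be technical.

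Loci of this kind arise when sequencing reads fall outside the genes of a reference annotation and are joined into transcribed units with provisional names. In mouse tissue such units are known to include copies of endogenous retroviruses and LINE-1 elements, processed copies of abundant mRNAs, non-coding transcripts, and genes that an annotation file leaves out, such as segments of antigen receptors. XBP1, a transcription factor, drives part of the response to unfolded proteins in the endoplasmic reticulum, and the series compares tumors whose cancer cells do or do not carry the hairpin against it.

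Total counts lay between 29070605 and 36012997 per tumor. Xbp1 was lower in every shXBP1 tumor (56.6 to 77.2 CPM) than in any shNT tumor (96.0 to 109 CPM), with a log2 fold change of -0.51 (SE 0.10, adjusted p = 0.00255, edgeR). CPM stands for a count scaled to library size. Of 20 leukocyte markers, 19 were tested and all 19 were higher in shXBP1 tumors, against 16.9% of all rows tested; their summed level was 363 to 483 CPM in shNT and 859 to 1362 CPM in shXBP1 tumors, and shXBP1 tumor 4 was the lowest of its group. None of 20 was at 0 in all tumors. Fibroblast markers were higher for 3 of 5 (summed 1006 to 1307 CPM in shNT and 1814 to 2337 CPM in shXBP1 tumors). Among them Dcn alone was at 266 to 352 CPM in shNT and 805 to 1489 CPM in shXBP1 tumors. The collagens Col1a1 (log2 fold change 0.05, adjusted p = 0.911, edgeR) and Col1a2 (-0.26, adjusted p = 0.0606) did not pass the test. Endothelial markers were higher for 3 of 4 (37.1 to 44.2 and 78.9 to 88.1 CPM). None of 3 skeletal muscle markers passed the test, with their highest sum, 38.6 CPM, in shXBP1 tumor 4. The part of these cell types in the levels of the loci was not tested. The 5 epithelial markers summed to 5.62 to 10.6 CPM. Most of that was Cdh1, the epithelial cadherin, at 4.54 to 9.86 CPM in every tumor, whereas the keratin Krt18 had no count in 7 of 8 tumors. On the first principal component of the newGene loci, which held 40.3% of their variance, the shNT group spanned -19.1 to -11.0; the first 3 shXBP1 tumors spanned 16.1 to 19.3, and shXBP1 tumor 4 was at 4.48.

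NewGene loci took up a small and steady part of each library. Their share of all counts was 1.489, 1.503, 1.474 and 1.468% in the shNT tumors (numbers 1 to 4, an order kept throughout), and it was 1.543, 1.571, 1.577 and 1.472% in the shXBP1 tumors. The first 3 shXBP1 tumors were above all shNT tumors, while shXBP1 tumor 4 lay within the shNT range. The 10 most abundant loci alone held 29.9 to 32.1% of the newGene counts in shNT tumors and 28.1 to 30.2% in shXBP1 tumors.

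Most loci were rare. The median locus had 37 counts summed over 8 tumors, against 1170 for annotated genes, and the lowest had 1. In shNT tumors 2343 to 2364 loci had at least 1 count, and in shXBP1 tumors 2430 to 2636. These ranges do not overlap, and the highest number belongs to shXBP1 tumor 4, the library with the most counts. Annotated genes showed the same order, with 14867 to 14999 in shNT and 15171 to 15554 in shXBP1 tumors, again highest in shXBP1 tumor 4. All 8 tumors held 1478 loci (39.6%, against 61.7% of annotated genes), while 624 loci were seen in a single tumor. At a minimum of 10 counts, 960 loci were present in all 8. Presence in every tumor of a group and in none of the other was uncommon. At a minimum of 1 count it held for 12 loci on the shXBP1 side and 10 on the shNT side (0.32% and 0.27%). For annotated genes the numbers were 34 and 7 (0.15% and 0.03%). At a minimum of 10 counts, with fewer in every tumor of the other group, there were 21 and 0 loci (0.56% and 0%). Annotated genes at that minimum numbered 37 and 11 (0.17% and 0.05%). No locus had 0 counts in 1 group and at least 10 counts in every tumor of the other.

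**Figure D1:**
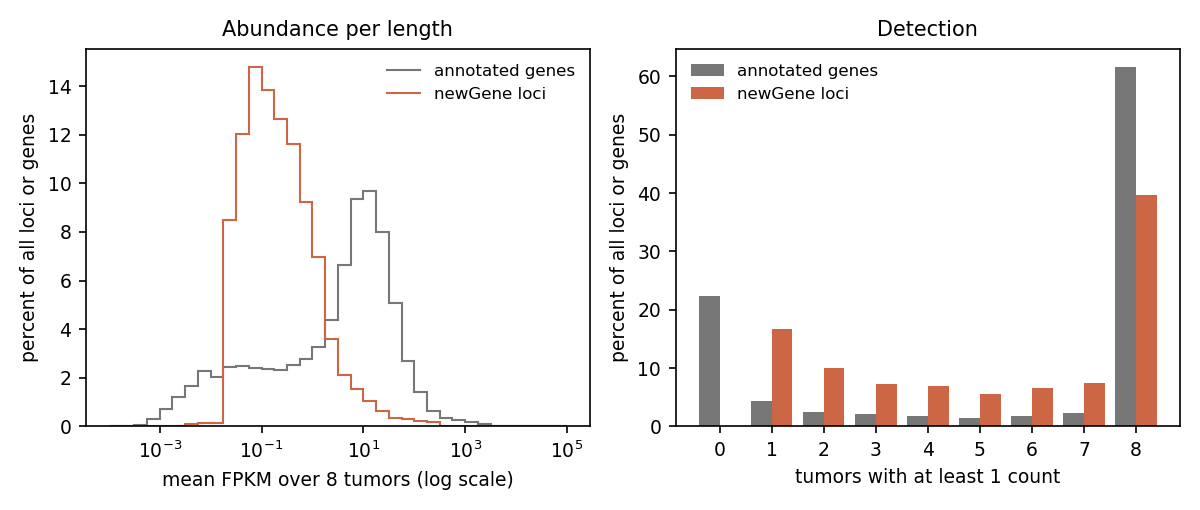
Left, histogram of the mean FPKM over 8 tumors (log scale) as a percent of all newGene loci or all annotated genes. Right, percent of loci or genes with at least 1 count in 0 to 8 tumors; newGene loci peak below annotated genes in FPKM, and 39.6% of them against 61.7% of annotated genes were present in all 8 tumors.

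Compared per length, as FPKM, newGene loci were also low. The median of the mean FPKM was 0.180 over all newGene loci and 1.44 over all annotated genes, with 630 loci at 1 FPKM or more and 100 at 10 or more. The ratio of count to FPKM gives the transcript length that the authors' table used. For annotated genes with a single transcript, 90.2% of these lengths were within 2% of the length in GENCODE M21. For 1435 loci with enough counts the median length was 1432 nt, with quartiles of 939 and 2375 nt, about as long as a short mRNA. Annotated genes had a median of 2924 nt by the same route (13689 genes).

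The table also carries annotation text. A match in the NR protein collection was given for 1915 loci (51.3%), in Swiss-Prot for 753 (20.2%, against 94.6% of annotated genes), a Pfam domain for 539 and a GO term for 908. No annotation of any kind was given for 1796 loci. Of the Swiss-Prot matches 636 were to mouse and 112 to rat proteins. A match says that the sequence of a locus resembles the named protein; it names neither the gene nor the place of the locus, and the positions of the loci are not analysed here. Matches repeat: 854 loci shared their NR match with at least 1 other locus, and where copies are nearly identical the counting of reads could have split them between loci. Levels of such copies are uncertain for this reason.

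The 2 loci of highest mean CPM were retroviral. NewGene_242 and newGene_1191 matched the Env polyprotein, the envelope precursor of murine leukemia virus (MLV) proviruses, which mouse genomes carry in many copies. NewGene_242 was at 735, 813, 788 and 815 CPM in shNT tumors and 601, 638, 720.5 and 782 CPM in shXBP1 tumors. The groups overlap, and the locus did not pass the test (log2 fold change -0.20, SE 0.09, adjusted p = 0.131). Its mean of 222 FPKM was above that of newGene_1191 (108 FPKM, whose NR match is a gag-pro-pol polyprotein, the precursor of capsid and replication enzymes) and of newGene_2609 (76.7 FPKM), another Env match. For these 2 loci the log2 fold changes were -0.24 (adjusted p = 0.0563) and -0.24 (adjusted p = 0.0784).

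Over the 10 loci with an MLV-related Env match, the summed level was 1956, 2209, 2091 and 2142 CPM in shNT tumors and 1757, 1676, 1833 and 1880 CPM in shXBP1 tumors. Every shNT tumor was above every shXBP1 tumor. Most of this sum, with group means of 2099 and 1787 CPM, lay in newGene_242, newGene_1191 and newGene_2609. Their means were 788, 780.5 and 435 CPM in shNT and 685.5, 662 and 369 CPM in shXBP1 tumors. None of these 3 loci passed the test, and the groups overlap for each. Of 9 tested members, 2 were lower and 1 was higher (33.3% called, against 30.0% of all rows tested), and the median log2 fold change was -0.24, against 0.01 over all tested newGene loci. The lower ones were newGene_1470 (19.8 ± 1.42 CPM in shNT against 12.8 ± 1.53 CPM in shXBP1, SD, n = 4 each; log2 fold change -0.62, SE 0.11, adjusted p = 0.00177) and newGene_7016 (log2 fold change -0.76, adjusted p = 0.00766, groups overlapping). The higher one was newGene_6095 (0.40, adjusted p = 0.0483, groups overlapping), which kept its call only without shNT tumor 2 or shXBP1 tumor 4 among the fits with a tumor left out. Without shXBP1 tumor 4 the members lower were 4. The group was set, and newGene_7016 and newGene_6095 were chosen, after values were seen. NewGene_5510, matched to the retrovirus-related Env of Fv-4, a locus known for blocking infection by ecotropic MLV, was at 103 ± 8.75 and 97.0 ± 6.50 CPM (SD, n = 4 each; adjusted p = 0.504; also chosen after its values were seen).

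Matches other than retroviral also stood among the 10 most abundant loci. NewGene_797, with an NR match named only mCG148129, was at 492, 508, 579 and 611 CPM in shNT and 871, 922, 891 and 769.6 CPM in shXBP1 tumors. The groups were apart, and in shXBP1 tumors the locus was 1.58-fold higher (log2 fold change 0.66, SE 0.10, adjusted p = 0.000397). NewGene_3012 matched subunit zeta of the T-complex protein 1, a chaperonin that folds actin and tubulin. It was at 489 ± 40.4 and 413 ± 42.4 CPM (SD, n = 4 each; adjusted p = 0.0721), with overlapping groups. NewGene_4458, matched to mCG147890, was lower (368 ± 49.8 and 279 ± 21.6 CPM, SD, n = 4 each; log2 fold change -0.40, SE 0.10, adjusted p = 0.0129), although shNT tumor 3 (299 CPM) fell within the shXBP1 range.

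The remaining abundant loci differed little between groups. NewGene_4054 matched cadherin-11, an adhesion molecule of mesenchymal cells, and was at 268 ± 20.4 and 228 ± 12.5 CPM (SD, n = 4 each). Its groups met without overlap at 246 CPM, the log2 fold change was -0.23 (adjusted p = 0.0434), and the call was lost without shNT or shXBP1 tumor 1, 2 or 3. The annotated gene Cdh11 was at only 6.07 CPM in shNT tumors. NewGene_3778, newGene_857 and newGene_794 did not pass the test, with adjusted p of 0.26, 0.0853 and 0.824.

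The comparison of shXBP1 with shNT tumors used edgeR's quasi-likelihood test on all 14907 rows with enough counts, with Benjamini-Hochberg adjustment over all of them. Of the 3730 loci, 1379 passed the filter on low counts. Of these, shXBP1 tumors had 163 higher and 104 lower loci at an adjusted p under 0.05, 11.8% and 7.54%, against 16.9% and 13.1% of all rows tested. The SE of the log2 fold change had a median of 0.33 over these loci, against 0.12 for annotated genes. Their median log2 fold change was 0.01. At least 2-fold changes were found for 114 higher and 41 lower loci (8.27% and 2.97%, against 7.63% and 1.11% of all rows). The groups did not overlap for 281 tested loci (20.4%, against 30.2% of all rows). Of the 1379 loci, 18 reached the filter's level of 0.312 CPM in all shXBP1 tumors and in no shNT tumor, and 14 of those 18 were among the loci called higher. Such loci were tested only through the group where they are high. Of those named here, newGene_3189, newGene_6265 and newGene_3051 are of this kind. Other called loci named here leaned on their higher group, with the level in all its tumors but not all of the other. Among higher loci, 1 shNT tumor reached it for newGene_3181, newGene_3265, newGene_6731 and newGene_237. For newGene_7172 and newGene_3190 it was 2, and for newGene_3186, newGene_6729 and newGene_3425 it was 3. Among lower loci, 1 shXBP1 tumor reached it for newGene_1546, newGene_2885 and newGene_4176, 2 for newGene_6318, and 3 for newGene_6443 and newGene_3975.

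The share called differed with the level. Among loci with a mean under 1 CPM, 9.19% were called (annotated genes of that level 14.4%); from 1 to 10 CPM 21.6% (31.0%), from 10 to 100 CPM 36.9% (31.0%), and at 100 CPM or more 6 of 25 loci were higher and 3 lower (annotated genes 39.4% called). Between 10 and 100 CPM, 36 loci were higher and 40 were lower. With the log2 CPM of Ptprc, the gene of the pan-leukocyte antigen CD45, as a covariate, 6 loci were higher and 7 lower; 57 and 77 had an unadjusted p under 0.05. Ptprc itself was at 42.6 to 66.5 CPM in shNT and 94.8 to 193 CPM in shXBP1 tumors, so this covariate and the hairpin cannot be told apart. In whole tumors, fewer cells of a type and less RNA per cell cannot be told apart either.

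**Figure D2:**
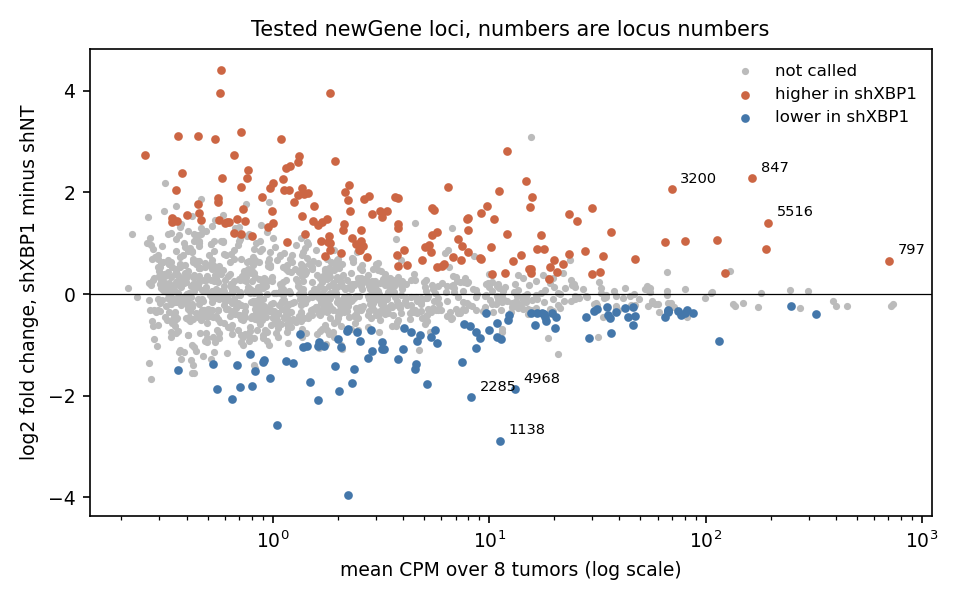
Log2 fold change (shXBP1 minus shNT) of 1379 tested newGene loci against their mean CPM over 8 tumors (log scale); colored points passed the adjusted p of 0.05, 163 higher and 104 lower. The numbers mark newGene_797, newGene_847, newGene_3200, newGene_5516, newGene_2285, newGene_4968 and newGene_1138, and large changes of either sign were also seen at low CPM.

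Several loci matched to chains of antigen receptors were higher in shXBP1 tumors. T cells recognize antigen through receptors of alpha and beta or gamma and delta chains, each joined from variable segments and a constant region; B cells use immunoglobulin chains. Words for immunoglobulin or T cell receptor occurred in the text of 97 loci, of which 22 were tested, 13 were higher and 0 lower (59.1%, against 16.9% of all rows higher). The filter bears on this share, since 10 of the 22 reached its level in every shXBP1 tumor but not in every shNT tumor, and 7 of those 10 were called higher; the share is therefore no support for a direction of the class. DESeq2 called 21 of this class higher, and a filter of 1 CPM in 4 tumors left 8. The class also holds receptors with immunoglobulin-like domains and an MHC class I match.

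NewGene_3200 matched the constant region of the T cell receptor beta-1 chain. It was at 31.9, 17.5, 25.5 and 32.3 CPM in shNT tumors and 112, 137, 137 and 64.7 CPM in shXBP1 tumors. All shXBP1 tumors were above all shNT tumors, with shXBP1 tumor 4 nearest to them, and the locus was 4.20-fold higher (log2 fold change 2.07, SE 0.28, adjusted p = 0.00118). In GENCODE M21 the gene of this region, Trbc1, lies on chromosome 6 of GRCm38 (41538218 to 41539881, plus strand), with its near copy Trbc2 at 41546730 to 41548352. Neither identifier is among the rows of the table used here, and reads of both could have entered the locus.

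NewGene_6696 matched the constant region of the alpha chain and was chosen after its values were seen. It was at 6.74, 4.13, 6.79 and 8.95 CPM in shNT and 32.3, 31.6, 26.2 and 9.72 CPM in shXBP1 tumors. The groups were apart, but shXBP1 tumor 4 exceeded the highest shNT tumor by less than 1 CPM. Its log2 fold change of 1.91 passed the test (SE 0.39, adjusted p = 0.00783). Trac, the gene of this region, lies on chromosome 14 (54220521 to 54224206, plus strand, GRCm38) and has no identifier in the table.

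Among variable segments of the beta chain, newGene_3181 rose most clearly. It was at 0.126, 0.0946, 0.347 and 0.312 CPM in shNT tumors and 4.65, 2.96, 3.96 and 2.22 CPM in shXBP1 tumors, without overlap (log2 fold change 3.96, SE 0.42, adjusted p = 5e-05). NewGene_3189 (4.41, SE 0.78, adjusted p = 0.0013) and newGene_3190 (3.06, SE 0.67, adjusted p = 0.00547) share its Swiss-Prot match and were also higher, from means of 0.0494 and 0.228 CPM in shNT to 1.11 and 1.95 CPM in shXBP1 tumors. NewGene_3189 passed the filter only through the shXBP1 tumors, and newGene_3181 and newGene_3190 reached its level in 1 and 2 shNT tumors. NewGene_3186, another beta segment chosen after its values were seen, was higher by 2.02 (SE 0.41, adjusted p = 0.0032).

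In all, 58 loci matched a chain of the T cell receptor, 14 were tested, 6 were higher and 8 did not pass (42.9% higher, against 16.9% of all rows); 9 were higher without shXBP1 tumor 4. Of the 14, 7 reached the filter's level in every shXBP1 but not every shNT tumor, 4 of them called higher. Their summed level was 45.1, 25.1, 38.5 and 49.6 CPM in shNT tumors and 167, 201, 193 and 87.7 CPM in shXBP1 tumors. The groups were apart, with shXBP1 tumor 4 nearest to shNT. All 6 listed markers of T cells and cytotoxic lymphocytes were higher as well (16.9% of all rows were), with a summed level of 59.6 to 114 CPM in shNT and 256 to 432 CPM in shXBP1 tumors, and 256 in shXBP1 tumor 4. Their part in the levels of these loci was not tested.

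Immunoglobulin chains were rarer. NewGene_6086 matched the constant region of the mu heavy chain, the isotype of IgM, and was at 2.24, 1.80, 2.57 and 3.12 CPM in shNT and 10.3, 9.10, 13.2 and 9.35 CPM in shXBP1 tumors. The groups were apart by about 6 CPM and shXBP1 tumor 4 lay among its group (log2 fold change 2.11, SE 0.20, adjusted p = 2.67e-05). NewGene_6729, matched to a heavy chain variable region, rose by 2.47 (SE 0.56, adjusted p = 0.0058), and newGene_6731, in the same word class through its other text, by 2.74 (SE 0.55, adjusted p = 0.00295). NewGene_3265, matched to the kappa constant region, was at 0.345 ± 0.215 and 1.11 ± 0.514 CPM (SD, n = 4 each; adjusted p = 0.0226; chosen after its values were seen). Its groups overlapped and in fits with a tumor left out it kept its call only without shNT tumor 3, shXBP1 tumor 1 or shXBP1 tumor 4. Cd79b, a chain of the B cell receptor complex and a marker of B cells, was at 0.0624 to 0.473 CPM in shNT and 0.455 to 1.29 CPM in shXBP1 tumors, and its part in these values was not tested.

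Receptors of natural killer and myeloid cells were also matched. NewGene_3426 matched Klra7, a lectin-like receptor of the Ly49 family that reads MHC class I on other cells. It was at 0.441, 0.505, 0.658 and 0.561 CPM in shNT and 4.78, 2.67, 4.76 and 1.23 CPM in shXBP1 tumors (log2 fold change of 2.63, SE 0.42, adjusted p = 0.000651), with no overlap. The annotated Klra7 was higher by 2.43, and Ly49 genes are close copies, so reads could be split between the gene and the locus. NewGene_3425, matched to Klra8, was higher by 2.18 (SE 0.32, adjusted p = 0.000428). NewGene_3532, matched to a leukocyte immunoglobulin-like receptor, was higher by 0.97 (SE 0.22, adjusted p = 0.0066), with overlapping groups. Both were chosen after their values were seen. Another lectin-like receptor locus, newGene_3423, matched to Klra4, had a log2 fold change of -0.45 and did not pass the test (adjusted p = 0.521; chosen after its values were seen), while the annotated Klra4 was lower (-0.63, adjusted p = 0.0123). NewGene_7172 matched Ly6i, a surface antigen of myeloid cells, and was higher by 2.72 (SE 0.38, adjusted p = 0.000314), beside 2.74 for the annotated Ly6i.

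Of 12 loci with interferon or GTPase words 8 were tested, and in shXBP1 tumors 6 were higher, 0 lower and 2 did not pass (16.9% of all rows were higher), with a median log2 fold change of 0.98 against 0.01 over all tested newGene loci. Interferon-induced proteins of these families act in antigen processing and in defence against intracellular pathogens.

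NewGene_4190 matched the gamma-interferon-inducible lysosomal thiol reductase, which unfolds proteins in the lysosome for MHC class II presentation and is the product of Ifi30. It was at 70.3, 61.2, 74.6 and 85.2 CPM in shNT and 159, 171, 171 and 108 CPM in shXBP1 tumors. The groups were apart, with shXBP1 tumor 4 the lowest of its group, and the locus was 2.09-fold higher (log2 fold change 1.06, SE 0.15, adjusted p = 0.000449). Ifi30 has no row among the annotated genes; in GENCODE M21 it lies on chromosome 8 of GRCm38 (70762774 to 70766663, minus strand).

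NewGene_5493 has an NR match to Schlafen family member 4, a protein of interferon-exposed myeloid cells, but its Swiss-Prot match is SLFN14. The gene Slfn4 has a row of its own in the table. NewGene_5493 was at 18.3, 10.1, 13.8 and 14.6 CPM in shNT and 46.9, 59.4, 52.4 and 24.2 CPM in shXBP1 tumors. No shXBP1 tumor fell to the shNT range, and shXBP1 tumor 4 was the lowest of its group (log2 fold change 1.69, SE 0.28, adjusted p = 0.00264). NewGene_1471, matched to the interferon-activable protein 203, a nuclear protein of the p200 family, was higher by 1.44 (SE 0.17, adjusted p = 0.00015), and the annotated Ifi203 by 1.03.

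NewGene_5376 was the most abundant of the class in CPM. It matched a T-cell-specific GTPase known to act on vacuoles of intracellular parasites and was at 143, 120.1, 153 and 117 CPM in shNT and 308, 276, 249.7 and 156 CPM in shXBP1 tumors. The gap between shNT tumor 3 and shXBP1 tumor 4 was under 4 CPM (log2 fold change 0.89, SE 0.19, adjusted p = 0.00613). NewGene_3881 and newGene_3878, both matched to a very large interferon-induced GTPase, were higher by 1.57 (adjusted p = 0.00562) and 0.84 (adjusted p = 0.016). NewGene_670, matched to interferon-inducible GTPase 1, was at 6.88 ± 1.04 and 8.56 ± 0.447 CPM (SD, n = 4 each; adjusted p = 0.126), and newGene_5490, with an NR match to a Schlafen 10 homologue, at 46.6 ± 3.91 and 46.4 ± 4.64 CPM (SD, n = 4 each; adjusted p = 0.958). These last 5 loci were chosen after their values were seen. Under the Ptprc covariate newGene_3200 had an adjusted p of 0.493, newGene_4190 of 0.807 and newGene_6086 of 0.07.

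**Figure D3:**
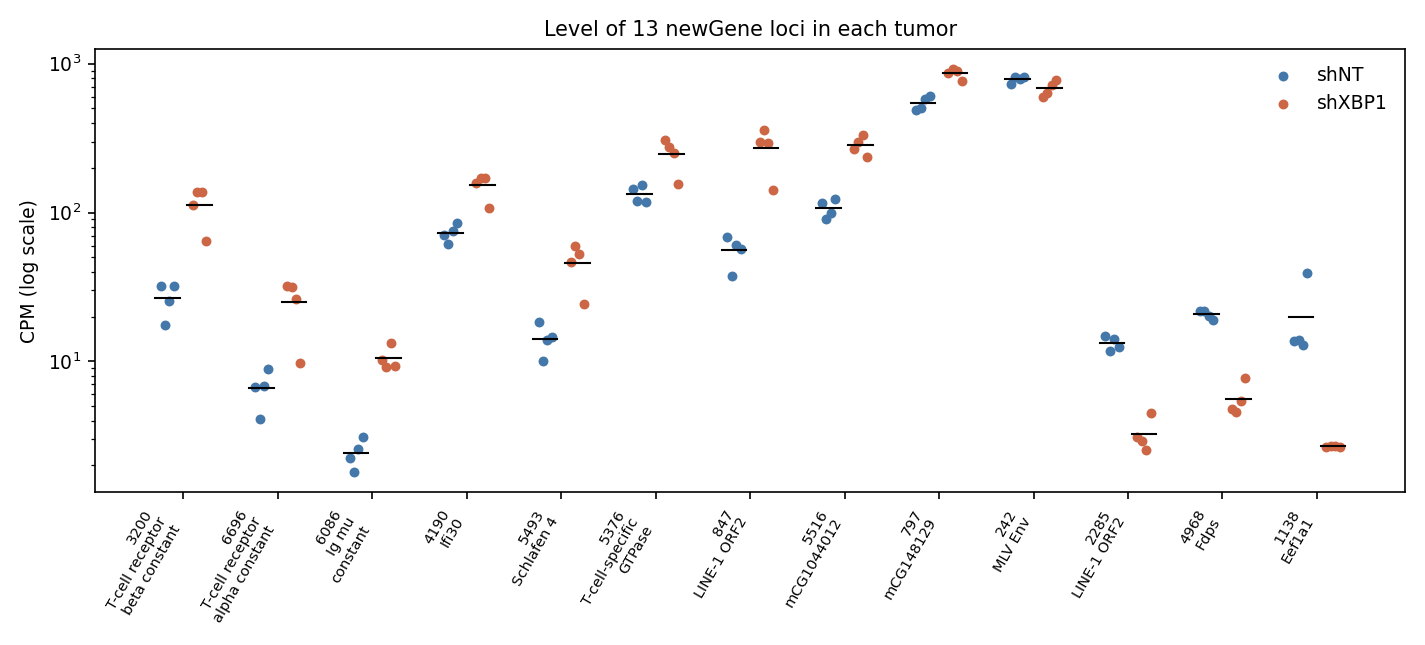
CPM (log scale) of 13 newGene loci in each shNT (blue) and shXBP1 (orange) tumor; points are tumors, lines are group means, and labels give the locus number and its match. The T cell receptor, immunoglobulin, interferon and first LINE-1 loci are higher in all 4 shXBP1 tumors, and newGene_2285, newGene_4968 and newGene_1138 are lower in all 4.

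MHC class I matches were few. NewGene_212 matched the alpha chain of H-2 class I antigen D-37, a nonclassical molecule that presents leader peptides to natural killer receptors. It was at 13.1, 11.3, 11.3 and 10.9 CPM in shNT and 24.1, 22.6, 18.3 and 21.3 CPM in shXBP1 tumors, apart from each other (log2 fold change 0.89, SE 0.12, adjusted p = 0.000207). NewGene_261, another class I match, was at 1.79 ± 0.629 and 3.44 ± 1.14 CPM (SD, n = 4 each; adjusted p = 0.0482) and lost its call without shNT or shXBP1 tumor 1, 2 or 3. A complement gene had a locus as well: newGene_237, matched to complement C4-B, was higher by 2.28 (SE 0.42, adjusted p = 0.00168). All 3 loci were chosen after their values were seen. The annotated C4b was higher by 2.82.

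Retroelement words occurred in the text of 191 loci, of which 109 were tested, 16 were higher and 9 lower, 22.9% against 30.0% of all rows. The median log2 fold change was 0.01. Without shXBP1 tumor 4 the number lower was 16. LINE-1 elements copy themselves through an RNA that codes for ORF1, which binds that RNA, and ORF2, a nuclease and reverse transcriptase; most copies in the genome are truncated. ORF2 was matched by 115 loci, of which 53 were tested, 9 higher and 4 lower (17.0% and 7.55%, against 16.9% and 13.1% of all rows, so the share higher was that of all rows); with shNT tumor 1 left out 1 was lower, with shNT tumor 2 left out 2, and with shXBP1 tumor 1 left out 2.

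The summed level of the ORF2 loci was 591, 506, 554 and 509.8 CPM in shNT and 807, 952, 819 and 613 CPM in shXBP1 tumors, with the groups apart. Much of this difference lay in 1 locus. NewGene_847, chosen after its values were seen, was at 68.2, 37.7, 60.5 and 57.3 CPM in shNT and 295, 360.3, 295 and 142 CPM in shXBP1 tumors (log2 fold change of 2.29, SE 0.31, adjusted p = 0.00134). It is a locus of 920.3 nt and averaged 53.8 FPKM in shNT and 258 FPKM in shXBP1 tumors, and shXBP1 tumor 4 was again the lowest of its group. Only its Swiss-Prot match names LINE-1, since its NR match is an unnamed protein product and no Pfam domain is given. With the Ptprc covariate its log2 fold change was 0.40 (adjusted p = 0.355, edgeR). Without newGene_847 the ORF2 sum was 452 to 522 CPM in shNT and 472 to 592 CPM in shXBP1 tumors, the groups overlapped, and the ratio of the means fell from 1.48 to 1.08.

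Other LINE-1 loci moved both ways. NewGene_669 was at 43.5, 39.6, 45.8 and 43.1 CPM in shNT and 89.2, 113, 90.9 and 56.2 CPM in shXBP1 tumors (log2 fold change of 1.02, SE 0.17, adjusted p = 0.00155; chosen after its values were seen), and newGene_82, of 13910 nt, was higher by 0.77 (SE 0.13, adjusted p = 0.000864). NewGene_2285 went the other way, at 14.8, 11.8, 14.2 and 12.5 CPM in shNT and 3.09, 2.92, 2.54 and 4.47 CPM in shXBP1 tumors. Its groups were far apart and it was 4.08-fold lower (log2 fold change -2.03, SE 0.19, adjusted p = 2.07e-05). Among retroelement loci without a LINE-1 match, newGene_821 had a Pfam domain of a retroviral envelope protein. It had no Swiss-Prot match and an uncharacterized NR match from Mus caroli, and was higher by 1.48 (SE 0.21, adjusted p = 0.00029). NewGene_3109 was higher by 0.69 (SE 0.11, adjusted p = 0.000881) and was chosen after its values were seen. Its match was the IgE-binding protein, a product of intracisternal A particle sequence. Of 8 tested loci with that match, 1 was higher and 0 lower.

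A group of 8 loci shared the NR match mCG1044012, a predicted protein with no described role in the table, and was picked out after the values were seen. All 8 were tested, 5 were higher and 0 lower, against 16.9% of all rows higher. Their summed level was 381, 363, 317 and 359.7 CPM in shNT and 606, 650.5, 715 and 657 CPM in shXBP1 tumors, and here shXBP1 tumor 4 was not the lowest of its group. NewGene_5516, the most abundant in the shXBP1 tumors, was at 116, 90.0, 99.1 and 123 CPM in shNT and 267, 298, 333 and 236 CPM in shXBP1 tumors (log2 fold change of 1.40, SE 0.12, adjusted p = 1.69e-05). NewGene_771 was higher by 1.05 (SE 0.09, adjusted p = 1.23e-05) and newGene_2470 by 1.23 (SE 0.27, adjusted p = 0.0104), both without overlap, and both remained past the threshold with the Ptprc covariate (adjusted p = 0.02 and 0.0475), whereas newGene_5516 (adjusted p = 0.0791) and newGene_1213 (adjusted p = 0.225) did not. NewGene_1213 was higher by 0.41 (adjusted p = 0.0303) with overlapping groups, and leaving out shNT tumor 2, 3 or 4, or else shXBP1 tumor 3, ended the call. The number higher was 3 of 8 without shNT tumor 3 and 3 of 8 without shXBP1 tumor 3. How reads were shared between these 8 loci was not stated in any source used here.

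Sp100-rs is a repeated mouse sequence related to the nuclear body gene Sp100. All 4 loci matched to a component of it were higher, against 16.9% of all rows higher. These too were picked out after the values were seen. Their summed level was 44.1, 53.8, 52.5 and 51.4 CPM in shNT and 105, 110.1, 80.8 and 59.4 CPM in shXBP1 tumors, apart by less than 6 CPM at shXBP1 tumor 4. The log2 fold changes were 0.74 for newGene_6166, 0.89 for newGene_6181, 0.93 for newGene_6091 and 0.83 for newGene_6105, with adjusted p between 0.0029 and 0.0115. The groups overlapped for newGene_6181, with shXBP1 tumor 4 at 13.5 CPM and shNT tumor 4 at 14.8 CPM. The NR match of newGene_6091 is proteinase-activated receptor 1. Reads could be split between copies of a repeated sequence, so the 4 loci are not separate results.

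Zinc finger words were found for 129 loci, of which 82 were tested, 3 were higher and 11 lower (17.1%, against 30.0% of all rows). By direction, 3.66% were higher and 13.4% lower, against 16.9% and 13.1% of all rows. The share lower was thus near that of all rows. The median log2 fold change was -0.24. Without shNT tumor 3, shXBP1 tumor 1 or shXBP1 tumor 3 the number lower was 7 in each case. The class is named by words in the text and includes retroelement matches whose text holds zinc finger words, among them newGene_1470. Zfp431, a repressor with a KRAB domain from a large mouse family, was matched by 44 loci, of which 27 were tested, 4 lower and 0 higher (14.8% lower, near the 13.1% of all rows; 1 higher without shNT tumor 3). NewGene_6375 among them was at 73.0, 76.7, 76.1 and 72.6 CPM in shNT and 63.4, 56.2, 59.5 and 59.4 CPM in shXBP1 tumors, apart from each other (log2 fold change -0.32, SE 0.07, adjusted p = 0.00536).

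Higher zinc finger loci were newGene_3141, matched in NR to Zfp800 (0.49, SE 0.10, adjusted p = 0.00429), and newGene_6491, matched to Zswim6 (0.49, SE 0.11, adjusted p = 0.00582; chosen after its values were seen). NewGene_6318, matched to zinc finger protein 62, had the largest decrease of any locus named here, but from scattered values. It was at 4.22, 1.14, 0.693 and 10.8 CPM in shNT and 0, 0, 0.635 and 0.402 CPM in shXBP1 tumors (log2 fold change of -3.96, SE 1.25, adjusted p = 0.049), and leaving out shNT tumor 1 or 4, or any shXBP1 tumor, ended the call. The annotated Zfp62 was at a log2 fold change of 0.14 (adjusted p = 0.329).

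**Figure D4:**
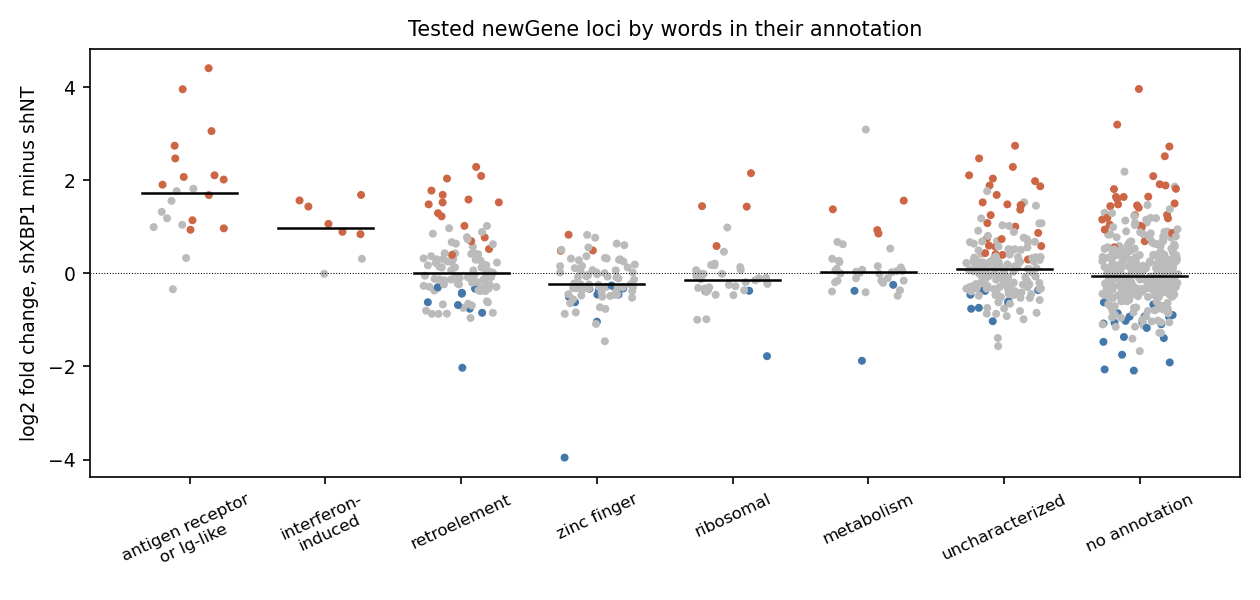
Log2 fold change (shXBP1 minus shNT) of tested newGene loci by class of annotation words; points are loci, spread sideways only for display, lines are class medians, and colors mark called loci (orange higher, blue lower, grey not called). The antigen receptor class has 13 of 22 loci called higher and a median of 1.72, and the retroelement class is centred at 0.01.

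Many loci resembled a protein whose gene has a row of its own. Such a locus can be a processed copy, an unannotated exon or a separate transcript. For 227 tested loci the annotated gene of the Swiss-Prot symbol was also tested, over 157 genes. Across these pairs the log2 fold changes had a Pearson r of 0.50 and a Spearman rho of 0.29, and in the 67 pairs whose locus averaged at least 10 CPM a Pearson r of 0.62. The points share the same 8 libraries, several loci share a gene, and reads could be split between locus and gene, so these values are a description. Of 23 loci called higher in these pairs, 14 had a gene called higher and 2 a gene called lower; of 20 loci called lower, 11 had a gene called lower and 0 a gene called higher. Of all annotated genes tested, 17.4% were called higher and 13.7% lower. The genes of the pairs are not a sample of these. Nedd4 alone, called lower (log2 fold change -0.30, adjusted p = 0.039, edgeR), is the match of 14 tested loci. The 2 shares therefore do not give the rate to be met in the pairs.

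NewGene_4968 matched farnesyl pyrophosphate synthase, an enzyme of the mevalonate pathway to cholesterol, encoded by Fdps. It was at 21.9, 21.7, 20.3 and 19.1 CPM in shNT and 4.81, 4.56, 5.43 and 7.71 CPM in shXBP1 tumors. The groups were far apart, with shXBP1 tumor 4 nearest to shNT, and the locus was 3.67-fold lower (log2 fold change -1.88, SE 0.16, adjusted p = 1.38e-05). The annotated Fdps (chromosome 3, 89093588 to 89101959, minus strand, GRCm38) changed by -1.90 (SE 0.17, adjusted p = 5.09e-05), from 284 to 76.1 CPM. Both fell by about the same factor, and whether the locus holds reads of Fdps was not tested.

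NewGene_1138 matched elongation factor 1-alpha 1, which brings tRNA to the ribosome. It was at 13.8, 13.8, 12.8 and 39.0 CPM in shNT and between 2.65 and 2.71 CPM in shXBP1 tumors. The shXBP1 tumors were nearly equal, while shNT tumor 4 stood far above the other shNT tumors (log2 fold change -2.89, SE 0.38, adjusted p = 0.000705). The annotated Eef1a1 changed by only -0.50, at 8708 CPM in shNT tumors. NewGene_5782, matched to ribosomal protein S2, had a log2 fold change of -1.78 (SE 0.31, adjusted p = 0.00148), beside -0.42 for Rps2.

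Some loci and genes differed in sign. NewGene_3375 matched NHP2-like protein 1, a component of the spliceosome and of snoRNA particles, and was higher by 2.15 (SE 0.30, adjusted p = 0.000314), while Snu13 was at -0.12 (adjusted p = 0.387). NewGene_4130, matched to the purine synthesis enzyme ADE2, was higher by 1.38 (SE 0.19, adjusted p = 0.000283), while its gene Paics was lower (-0.42, adjusted p = 0.00259). NewGene_5196, matched to mitochondrial ribosomal protein L30, was higher by 1.44 (adjusted p = 0.00624) and newGene_7324, matched to ribose-phosphate pyrophosphokinase 2, by 0.93 (adjusted p = 0.00399), while Mrpl30 and Prps2 did not pass the test. The difference between locus and gene was not tested in any pair. The ribosomal class as a whole had 38 tested loci, 4 higher and 3 lower (18.4% called), and the metabolism class 37, with 4 higher and 3 lower (18.9% called), against 30.0% of all rows.

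**Figure D5:**
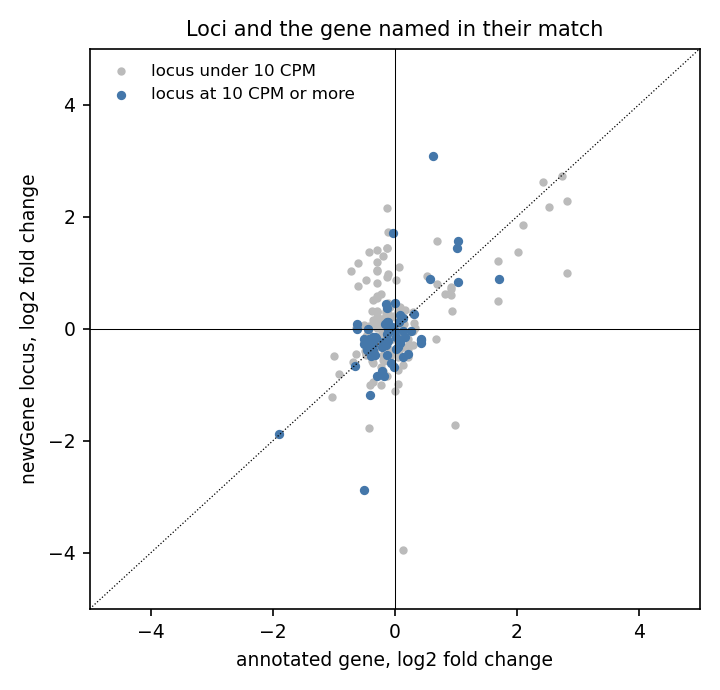
Log2 fold change (shXBP1 minus shNT) of 227 tested newGene loci against that of the annotated gene named in their Swiss-Prot match; the dotted line marks equal values. Loci at 10 CPM or more (67, blue) had a Pearson r of 0.62, and several loci lie far above or below a gene with a change near 0.

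For other matches the annotated table has no row at all. Of 320 symbols taken from Swiss-Prot matches, 60 had none, and 17 of those are GENCODE M21 genes whose identifier is absent from the table used here; 22 loci matched them. Besides Ifi30, Ighm and Igkc they include Cct6a (chromosome 5, 129786998 to 129846371, plus strand, GRCm38), the match of newGene_3012, and Ptpmt1, a mitochondrial phosphatase of cardiolipin synthesis (chromosome 2, 90908716 to 90918258, minus strand). NewGene_1265, which matched Ptpmt1, was at 40.0, 38.6, 38.0 and 45.7 CPM in shNT and 37.8, 28.7, 29.7 and 25.1 CPM in shXBP1 tumors (log2 fold change of -0.42, SE 0.12, adjusted p = 0.0191; chosen after its values were seen). The groups touch at shXBP1 tumor 1, and it lost its call when shNT tumor 4 or shXBP1 tumor 3 was left out. These positions are those of the genes, not of the loci.

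Loci with no annotation text at all made up 1796 of 3730, and 362 of them were tested. Of these 32 were higher and 22 lower (14.9%, against 30.0% of all rows), and their median log2 fold change was -0.06. The largest changes were those of newGene_6265 (0.0670 ± 0.0837 CPM in shNT against 1.07 ± 0.449 CPM in shXBP1, SD, n = 4 each; log2 fold change 3.96, SE 0.72, adjusted p = 0.00162) and newGene_3051 (3.20, SE 0.59, adjusted p = 0.00179), both tested only through the shXBP1 tumors, and in the other direction of newGene_6443 (2.62 ± 0.853 and 0.607 ± 0.314 CPM, SD, n = 4 each; -2.09, SE 0.41, adjusted p = 0.00263) and newGene_2885 (-2.06, SE 0.53, adjusted p = 0.0119). Words such as uncharacterized or unnamed occurred in the text of 355 loci, 83 of which other word classes hold as well, newGene_6086 and newGene_821 among them. Of the 355, 184 were tested, 27 higher and 9 lower (14.7% and 4.89%, against 16.9% and 13.1% of all rows). Among lower loci with NR text of no described role, newGene_1546 changed by -2.58 (adjusted p = 0.00726), newGene_4176 by -1.84 (adjusted p = 0.00893) and newGene_3975 by -1.81 (adjusted p = 0.00781). At a higher level, newGene_5400 was at 151 CPM on average in shNT and 79.6 CPM in shXBP1 tumors (-0.92, SE 0.11, adjusted p = 0.000148; chosen after its values were seen). In the higher direction newGene_3820 rose by 1.87 (SE 0.26, adjusted p = 0.000288).

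The authors' deposited table gives its own comparison for 844 newGene loci, of which it lists 59 as up, 19 as down and 766 as normal at the threshold in its header, an FDR of 0.01 and a fold change of 2, which is stricter than the threshold used here. That is 6.99% up and 2.25% down, against 6.27% and 0.714% of the 13307 rows it gives a value. All 59 and all 19 were also called here in the same direction, and all 212 loci called here among the 844 had the same sign in the authors' deposited table.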

How the data were processed

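The authors deposited counts, whole numbers without normalization and 1 column per tumor, beside FPKM, which the authors' header names and which scale a count to transcript length and depth. Build GRCm38 is named in the submitters' processing notes. No source used here names the aligner, the assembler of the new loci, the counting tool or the strand setting. In the table, the authors' own comparison is headed DESeq2 in the file, with log2 fold changes and adjusted p-values deposited by the authors.

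All 25766 rows were fitted together: filterByExpr, TMM scaling and the quasi-likelihood test of edgeR (4.0.16, R 4.3.3; robust, without covariates, two-sided), with Benjamini-Hochberg adjustment over 14907 rows and a threshold of 0.05. Log2 fold changes are shXBP1 minus shNT, and their SE is the change divided by the square root of the F value. Length was the count over FPKM, scaled in each tumor by annotated genes with 1 transcript. The procedure was tested on simulated counts. Samples were grouped by their genotype labels.

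Named loci are the 10 of highest mean CPM; per direction the 10 called loci of largest change that reached 1 CPM in the higher group without overlap of the groups; and up to 3 called loci of smallest p in each class of annotation words with 5 or more tested loci. Where no annotation is given, at most 2 loci per direction are named. All others are marked as chosen after seeing their values. The members and lists were chosen with earlier results of these data known. Alternatives were DESeq2 (1.42.0), limma voom (3.58.1), other scalings, filters and thresholds, tumor numbers as a block, Ptprc as a covariate, and leaving out each tumor.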

Additional observations from a re-analysis of the deposited data

Results flagged for a closer look

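In 170 groups of 4 tumors looked at for single loci and summed levels, 3 held a tumor far from the other 3 of its group; chance alone marks about 1 in 20 such groups. NewGene_1138, matched to elongation factor 1-alpha 1, was at 38.98 CPM in shNT tumor 4, while the next shNT tumor was at 13.85 CPM. NewGene_3165, matched to a proteolipid subunit of the V-type proton ATPase and chosen after its values were seen, was at 11.72 CPM in shNT tumor 1 and at 0.284 to 0.530 CPM in the other shNT tumors. In shXBP1 tumors 1 to 4 the same locus was at 0.542, 51.1, 57.4 and 2.38 CPM, so it did not follow the groups (adjusted p = 0.252, edgeR). NewGene_3975 was at 0.09643 CPM in shXBP1 tumor 2, with the other shXBP1 tumors at 0.402 to 0.462 CPM.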

How the results depend on the processing

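DESeq2, limma voom, other size factors, other filters and no robust estimation kept the number of loci higher within 126 to 212 (163 reported) and lower within 94 to 128 (104 reported). Leaving out 1 tumor at a time gave 127 to 192 higher and 72 to 128 lower loci. At an adjusted p of 0.01 there were 89 higher and 52 lower loci, and 41 lower loci remained at 2-fold or more. With the Ptprc covariate 6 were higher and 7 lower. The median log2 fold change was -0.0243 with a filter of 1 CPM in 4 tumors and -0.0512 with the Ptprc covariate, and -0.0262 to 0.0458 with a tumor left out. The share of counts in shNT was 1.47% over tested loci only; without the 10 most abundant loci it was 1.02% in shNT and 1.10% in shXBP1 tumors. Detection in all 8 tumors fell from 1478 loci to 960 at 10 counts, 616 at 1 CPM and 391 above 1 FPKM.

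For antigen receptor loci DESeq2 called 21 higher and the 1 CPM filter left 8; leaving out a tumor gave 10 to 16. Retroelement loci lower ranged from 6 to 16 and zinc finger loci lower from 7 to 11 with a tumor left out; the cause was not tested. The sign turned with the Ptprc covariate for newGene_242 (0.11), newGene_2609 (0.0516), newGene_794 (-0.40), newGene_4054 (0.0343), newGene_5493 (-0.0872), newGene_6696 (-0.49), newGene_3265 (-0.20), newGene_5376 (-0.21), newGene_3881 (-0.47), newGene_3878 (-0.0364), newGene_261 (-0.33), newGene_669 (-0.11) and newGene_3165 (-4.17), none with an adjusted p under 0.05. NewGene_794 ranged from -0.0634 to 0.187 with a tumor left out, below 0 without shNT tumor 4 or shXBP1 tumor 2. NewGene_5490 turned to 0.00663 without TMM and to 0.00457 with the 1 CPM filter, and ranged from -0.0679 to 0.0677 with a tumor left out.

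The labels do not say that tumor numbers pair the tumors. Same-numbered tumors had correlations of -0.07, -0.14, -0.03 and -0.06 in their deviations from the group means, and tumors of different number -0.09 to 0.17. These values do not decide whether tumors were paired. With the tumor number as a block, 125 loci were higher and 76 lower, of which 123 and 74 were among those reported. Low depth limits most loci, since the median had 37 counts in all, and loci that failed the filter were not tested. The LINE-1 ORF2 sum without newGene_847, and the repeats of group counts with a tumor left out, were chosen after seeing the data.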
